A study of Mus musculus with 12 samples.

Results

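The genes described here are 31 listed targets and partners of p53, followed across 4 Foxo1 genotypes of the mouse line BL#19, derived from Burkitt lymphoma. Members were found by gene symbol in the array's annotation, and each was read from the probe set whose mean over the 12 arrays was highest. Of the 31, 29 had a named probe set among the 18194 genes named on the array, and 27 exceeded the array median on 3 or more arrays and were tested among 11458 genes. Trp53, which encodes p53 itself, and Fdxr had no probe set named here and were not analysed. Perp (3.65 to 4.02) and Tnfrsf10b (4.22 to 5.35), log2 levels as are all levels below, lay under the array median on all 12 arrays and were not tested.

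The cells were edited with CRISPR/Cas9 at Foxo1, which encodes a forkhead transcription factor. All groups derive from 1 line that has wild-type Foxo1 (wt) next to a second allele carrying T24P (mt). The genotypes were wt+/mt+ (both alleles), wt-/mt+ (mutant allele alone), wt+/mt- (wild-type allele alone) and wt-/mt- (neither allele), with 3 arrays each and no treatment named. Most labels call the cells Burkitt lymphoma and 1 field calls them germinal center B cells. Whether the 3 arrays of a genotype are separate clones, cultures or repeats is not stated. The p-values therefore measure only how far these arrays spread, which may be technical, and a genotype may stand for 1 clone.

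p53 is a transcription factor that is held low by Mdm2 and Mdm4 and accumulates when DNA is damaged or oncogenes are active. It then raises genes that stop the cell cycle, such as Cdkn1a, genes that start apoptosis, such as Bbc3 and Pmaip1, and genes of DNA repair, together with its own inhibitors Mdm2 and Ppm1d. In B cell lymphomas driven by Myc, including Burkitt lymphoma, this pathway and its upstream activator Cdkn2a are known as a barrier to tumour growth, and several of its genes are also known targets of FOXO factors.

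Foxo1 was at 11.56, 11.63 and 11.72 in wt+/mt+, at 11.57, 11.16 and 11.64 with the mutant allele alone, at 12.10, 11.92 and 11.59 with the wild-type allele alone, and at 10.23, 9.39 and 10.34 with neither. The 3 arrays without either allele lay below the other 9, while the single-allele genotypes overlapped wt+/mt+. Where the probe set lies relative to the edits was not known here, so it bears on the label of wt-/mt- and not on which single allele was removed. Foxo1 RNA in wt-/mt- still lay well above every array median, and protein was not measured here. Below, "without Foxo1" names the genotype wt-/mt- as labelled. Array medians ran from 6.08 to 6.25. All 8 B cell markers named on the array were kept. The mean of that list on an array was 11.5, 10.8 and 10.6 on wt-/mt- replicates 1, 2 and 3. In the other genotypes it ran from 11.2 to 11.4. List means were at most 6.38 for T, NK, myeloid, stromal and erythroid cells, and 9.31 to 9.96 for plasma cells. Lists were mixed: the NK marker Klrd1 ran from 5.73 to 9.11, while Ncr1 and Gzma reached at most 5.70 and 4.78. Among plasma cell markers Prdm1 reached at most 5.36, while Jchain ran from 12.11 to 14.60. Among B cell markers Pax5 ran from 6.81 to 7.88 and Ms4a1 from 14.38 to 14.88. The log2 ratio of 3' to 5' actin probe sets, a sign of RNA quality, was 2.17 and 1.71 on wt+/mt- replicates 1 and 2 and 1.06 to 1.29 on the other 10 arrays. The spiked hybridization control bioD read 13.83 to 14.04 on the 6 mt+ arrays and 12.97 to 13.52 on the 6 mt- arrays, so any difference in how these arrays were run cannot be told apart from the mutant allele. The median SD over all tested genes was 0.0952 for wt+/mt+, 0.111 for wt-/mt+, 0.133 for wt+/mt- and 0.261 for wt-/mt-.

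Promoter windows, each running from 250 bases before to 50 bases after a RefSeq start site (mouse build GRCm38.p6), were at hand for 24 of the 31 members, in 30 windows of 32851. They were searched on both strands for the core forkhead motif GTAAACA, for its first 6 bases GTAAAC, which every longer match also contains, and for the p53 response element by name. GTAAACA stood in windows of 3 members, Bbc3, Btg1 and Mdm2, and in 3.65% of all windows. Mdm4 joined them at the 6-base motif, which 7.89% of all windows hold. A p53 decamer stood in windows of 8 members, Aen, Ccng1, Cdkn1a, Ei24, Gadd45a, Mdm2, Ppm1d and Trp53, and in 8.36% of all windows. The full element, 2 decamers with a spacer of 0 to 13 bases, was found in 1 member, Cdkn1a, and in 0.0731% of all windows. A match describes letters, not a bound site.

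Of the 4 members with a forkhead match, Bbc3, Btg1 and Mdm4 passed the test in at least 1 comparison with wt-/mt- below. So did 12 of the 27 tested members and 30.0% of all genes, and a link between match and change was not tested. The upstream 250 bases are shown for the 4 members with a match and for Cdkn1a, the classical p53 target, which did not pass the test. They run 5′ to 3′ on the gene's strand, with the forkhead match or the p53 decamers in capitals. Bbc3 is at chr7:16310011-16310260 (plus strand), Btg1 at chr10:96616751-96617000 (plus), Mdm4 at chr1:133025417-133025666 (minus), Mdm2 at chr10:117710759-117711008 (minus) and Cdkn1a at chr17:29090729-29090978 (plus).
Bbc3: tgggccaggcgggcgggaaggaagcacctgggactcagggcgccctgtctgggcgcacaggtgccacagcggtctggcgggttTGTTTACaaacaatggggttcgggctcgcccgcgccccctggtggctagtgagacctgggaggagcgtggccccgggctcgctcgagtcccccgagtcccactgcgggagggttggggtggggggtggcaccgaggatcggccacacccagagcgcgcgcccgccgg
Btg1: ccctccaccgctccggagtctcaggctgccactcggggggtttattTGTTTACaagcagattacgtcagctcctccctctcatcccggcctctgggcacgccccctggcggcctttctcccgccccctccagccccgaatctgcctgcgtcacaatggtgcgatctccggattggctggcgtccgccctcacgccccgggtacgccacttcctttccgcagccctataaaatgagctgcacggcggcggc
Mdm4: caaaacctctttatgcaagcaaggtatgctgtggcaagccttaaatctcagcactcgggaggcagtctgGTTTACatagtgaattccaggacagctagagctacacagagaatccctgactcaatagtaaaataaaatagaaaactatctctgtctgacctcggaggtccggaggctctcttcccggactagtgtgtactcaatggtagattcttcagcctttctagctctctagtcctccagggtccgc
Mdm2: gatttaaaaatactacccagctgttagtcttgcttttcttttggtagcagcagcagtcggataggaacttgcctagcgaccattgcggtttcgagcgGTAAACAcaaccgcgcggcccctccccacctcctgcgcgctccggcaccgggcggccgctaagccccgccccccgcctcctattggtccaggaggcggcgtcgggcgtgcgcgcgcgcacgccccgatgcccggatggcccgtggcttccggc
Cdkn1a: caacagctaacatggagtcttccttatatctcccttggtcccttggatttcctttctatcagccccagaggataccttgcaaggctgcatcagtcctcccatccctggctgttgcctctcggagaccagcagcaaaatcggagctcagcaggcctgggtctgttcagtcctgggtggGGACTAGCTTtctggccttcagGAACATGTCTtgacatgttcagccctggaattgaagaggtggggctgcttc
Counted back from the start site, the forkhead match begins at base -167 in Bbc3, -204 in Btg1, -181 in Mdm4 and -153 in Mdm2, and the Cdkn1a decamers begin at -73 and -51. In Bbc3, Btg1 and Mdm4 the capitals hold the motif's reverse complement, and in Mdm2 the motif itself. For Bbc3, Mdm4 and Cdkn1a the window belongs to 1 of several start sites in the table.

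Without either Foxo1 allele, p53 pathway genes changed in both directions. Against wt+/mt+, 6 of 27 members fell and 2 rose (limma, Benjamini-Hochberg adjusted p under 0.05 over all 11458 genes, which is what "called" means below). The falls were in Mdm4, Gadd45b, Plk2, Bbc3, Btg1 and Btg2, and the rises in Plk3 and Ckap2l. Over all tested genes 22.1% were called, 9.94% lower and 12.2% higher, so the members' share of 29.6% lies near the background in total. The median change was -0.24 over the members and 0.05 over all genes. The arrays of these genotypes did not overlap in 14 members, against 38.4% of all genes. In bulk RNA, fewer cells of a type and less RNA per cell cannot be told apart.

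**Figure D1:**
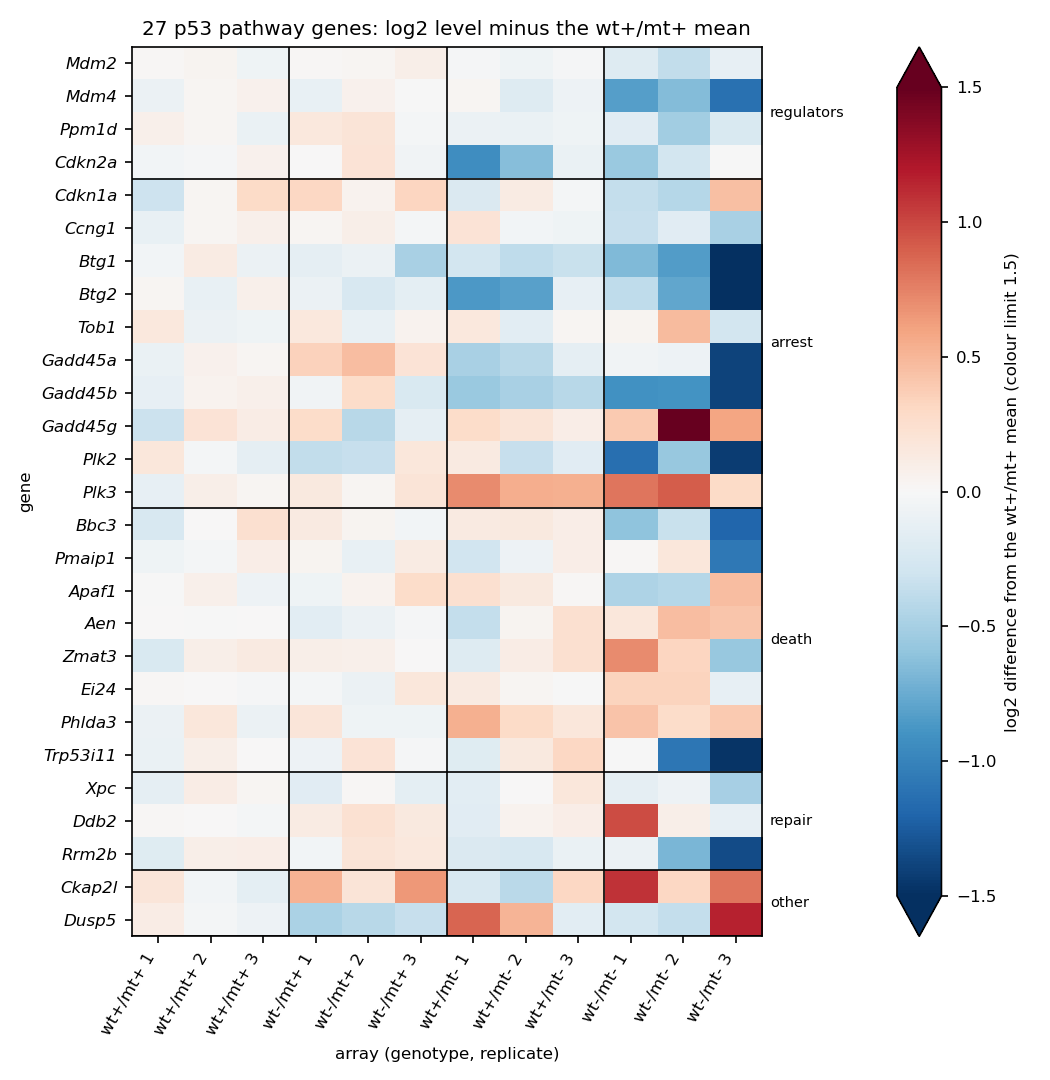
The log2 level of each of the 27 tested members (rows, grouped by role) on each of the 12 arrays (columns, by genotype), as the difference from the wt+/mt+ mean, with colours limited at 1.5. Most strong colours stand in the 3 wt-/mt- columns, and wt-/mt- replicate 3 holds the lowest of the 12 levels for 15 of the 27 genes.

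The comparisons with the single-allele genotypes use the same 3 wt-/mt- arrays, so they are not independent of the first. Loss of the wild-type allele where the mutant allele was already gone (wt-/mt- against wt+/mt-) left 5 members called, 4 lower and 1 higher, against 14.6% of all genes, 8.22% lower and 6.35% higher. Loss of the mutant allele where the wild-type allele was gone (wt-/mt- against wt-/mt+) left 10 members called, 8 lower and 2 higher, against 20.8% of all genes, 11.1% lower and 9.75% higher. That split was 3 higher and 6 lower with each array centred on its median, and 3 higher and 5 lower after quantile normalization. Arrays did not overlap in 9 members against wt+/mt- (25.7% of all genes) and in 15 against wt-/mt+ (35.0%). Bbc3, Gadd45b, Mdm4 and Plk2, 4 of 27, fell in all 3 comparisons, as did 5.76% of all genes, and with 1 weight per genotype, which lets wt-/mt- have its own wider spread, only Mdm4 did. In all, 12 members were called in at least 1 of them and 15 in none, where 30.0% of all genes were called in at least 1. Each call was run again under up to 21 alternative settings of filter, scaling, spread, probe sets and arrays, and the number that ended it is given below where it was 4 or more.

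**Figure D2:**
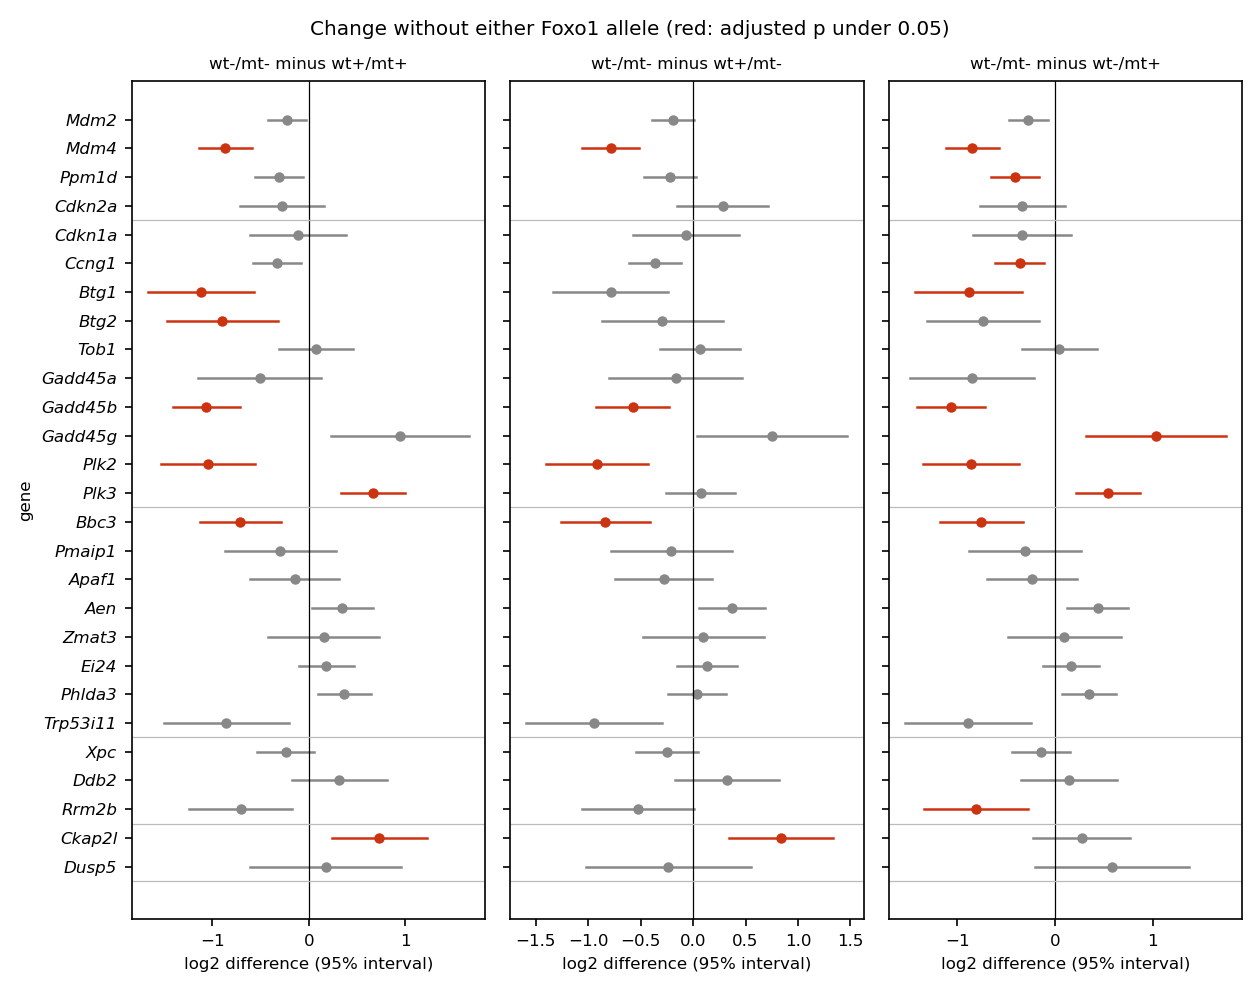
The log2 difference of each tested member (rows, grouped by role) between wt-/mt- and each other genotype (panels), with its 95% interval from limma. Red marks the members called, which are 8, 5 and 10 of 27, and most of them lie left of 0.

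Among the regulators of p53, Mdm4, a close relative of Mdm2 that binds p53 and blocks its activity, gave the lowest adjusted p. Its levels were 10.70, 10.83 and 10.85 in wt+/mt+, 10.68, 10.86 and 10.78 with the mutant allele alone, 10.82, 10.61 and 10.72 with the wild-type allele alone, and 9.96, 10.14 and 9.67 with neither. The 3 arrays without Foxo1 all lay below the other 9, which overlapped one another. Mdm4 fell by 0.87 (SE 0.12, limma adjusted p = 0.00128) against wt+/mt+, a 1.82-fold lower level, by 0.79 (SE 0.12) against wt+/mt- and by 0.85 (SE 0.12) against wt-/mt+. Removal of a single allele left it within 0.08 of wt+/mt+, and the 95% intervals of those differences ran from -0.35 to 0.20 for wt+/mt- and from -0.29 to 0.25 for wt-/mt+.

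Mdm4 lies on chromosome 1, whose median over 643 genes on wt-/mt- replicate 1 was -0.31 relative to wt+/mt+. With each array centred per chromosome the fall against wt+/mt+ was 0.65 (adjusted p = 0.00708). Its second probe set, at a mean of 7.32, gave -0.65 and was called, but the next, at 7.07, gave 0.08 and was not. The probe sets of Mdm4 thus do not report 1 change, and which transcripts each detects was not tested.

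Mdm2, the ubiquitin ligase that marks p53 for destruction and is itself a p53 target, was at 10.23, 10.25 and 10.15 in wt+/mt+, at 10.23, 10.24 and 10.30 with the mutant allele alone, at 10.19, 10.15 and 10.19 with the wild-type allele alone, and at 10.02, 9.84 and 10.09 with neither. The wt-/mt- arrays lay below all others, but the differences of -0.23, -0.19 and -0.27 were not called (adjusted p = 0.0909, 0.175 and 0.0524). A dimmer Mdm2 probe set, at a mean of 8.10, differed by -1.02 (SE 0.22, adjusted p = 0.0115 over all probe sets) between wt-/mt- and wt+/mt+, so the size of the Mdm2 change depends on the probe set.

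Ppm1d, a phosphatase that switches p53 signalling off, was at 9.70, 9.65 and 9.53 in wt+/mt+, at 9.79, 9.83 and 9.60 with the mutant allele alone, at 9.54, 9.53 and 9.56 with the wild-type allele alone, and at 9.46, 9.11 and 9.40 with neither. The fall of 0.41 (SE 0.11, limma adjusted p = 0.0251) against wt-/mt+ was called, while the difference of -0.31 from wt+/mt+ was not (adjusted p = 0.0701). The call was lost under 8 of 21 alternatives (adjusted p up to 0.139). A second Ppm1d probe set gave -0.54 and -0.36, both called. Cdkn2a, whose Arf product restrains Mdm2, was called in no comparison of the main fit. It was at 13.52, 13.54 and 13.62 in wt+/mt+ and at 13.57, 13.76 and 13.51 with the mutant allele alone. With the wild-type allele alone it was at 12.63, 12.92 and 13.45, and with neither at 13.01, 13.28 and 13.56. Its lowest levels stood on wt+/mt- replicates 1 and 2, the arrays with the high actin ratio.

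Of the 10 tested genes of growth arrest, 7 were called in at least 1 comparison, beside 30.0% of all genes. Gadd45b, a stress-induced partner of kinases and cell cycle proteins, was at 12.24, 12.42 and 12.44 in wt+/mt+, at 12.31, 12.64 and 12.14 with the mutant allele alone, at 11.81, 11.88 and 11.95 with the wild-type allele alone, and at 11.46, 11.47 and 10.97 with neither. Both mt- genotypes lay below both mt+ genotypes without overlap, and wt-/mt- lay lowest, a split that follows the bioD control. It fell by 1.06 (SE 0.16, limma adjusted p = 0.00159) against wt+/mt+, a 2.09-fold lower level, by 1.06 against wt-/mt+ and by 0.58 against wt+/mt- (adjusted p = 0.0346), a call lost under 10 of 21 alternatives (adjusted p up to 0.329). Over its 3 probe sets the difference from wt+/mt+ ran from -1.14 to -0.40, with 2 called.

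The other GADD45 genes encode related stress sensors. Gadd45g was at 5.92, 6.45 and 6.35 in wt+/mt+, at 6.52, 5.82 and 6.10 with the mutant allele alone, at 6.51, 6.43 and 6.34 with the wild-type allele alone, and at 6.63, 8.09 and 6.84 with neither. The 3 wt-/mt- arrays lay above all others, with replicate 2 far above the rest, and only the rise of 1.04 (SE 0.33, limma adjusted p = 0.0447) against wt-/mt+ was called. That call was lost under 14 of 21 alternatives (adjusted p up to 0.173), and without wt-/mt- replicate 2 the difference was 0.58 (adjusted p = 0.0618). Gadd45g exceeded the array median on 9 of 12 arrays, and wt-/mt+ replicates 2 and 3 lay under it. Gadd45a was at 9.82, 9.98 and 9.94 in wt+/mt+, at 10.26, 10.38 and 10.12 with the mutant allele alone, at 9.43, 9.50 and 9.78 with the wild-type allele alone, and at 9.86, 9.84 and 8.52 with neither. It was not called in the main fit, where its difference from wt-/mt+ was -0.85 (adjusted p = 0.0599). The low replicate 3 of wt-/mt- added to both the size of that difference and its spread. With wt-/mt- replicate 1 or replicate 3 left out, the fall against wt-/mt+ was called.

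Btg1 and Btg2 encode antiproliferative proteins that work with the CCR4-NOT deadenylase, and both genes are highly active in resting B cells. Btg1 was at 13.81, 13.98 and 13.76 in wt+/mt+, at 13.72, 13.76 and 13.37 with the mutant allele alone, at 13.57, 13.47 and 13.52 with the wild-type allele alone, and at 13.19, 13.01 and 12.00 with neither. All wt-/mt- arrays lay below the other 9, and replicate 3 lay more than 1 unit below its group's next array. It fell by 1.12 (SE 0.25, limma adjusted p = 0.0109) against wt+/mt+ and by 0.88 against wt-/mt+, and the difference of -0.79 from wt+/mt- was not called (adjusted p = 0.0578). All 3 Btg1 probe sets were called against wt+/mt+, from -1.91 to -1.12. With wt-/mt- replicate 3 left out the fall against wt+/mt+ was 0.75 (adjusted p = 0.00337) and the difference from wt-/mt+ was -0.52 (adjusted p = 0.0180). The call against wt-/mt+ was lost under 5 of 21 alternatives (adjusted p up to 0.153), among them 1 weight per genotype (adjusted p = 0.0553).

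Btg2 was at 12.43, 12.30 and 12.49 in wt+/mt+, at 12.31, 12.16 and 12.26 with the mutant allele alone, at 11.55, 11.59 and 12.28 with the wild-type allele alone, and at 12.03, 11.62 and 10.88 with neither. The fall of 0.90 (SE 0.26, limma adjusted p = 0.0332) against wt+/mt+ was called, while wt-/mt- overlapped wt+/mt- (difference -0.30). It also lies on chromosome 1, and centring per chromosome took the change to -0.68 (adjusted p = 0.115). Leaving out wt-/mt- replicate 3 took it to -0.58 (adjusted p = 0.0635). In all 7 of 21 alternatives ended the call. Tob1, of the same protein family, was called in no comparison of the main fit, with differences of 0.04 to 0.08.

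Plk2 and Plk3, polo-like kinases of the stress response, moved in opposite directions. Plk2 was at 11.61, 11.41 and 11.30 in wt+/mt+, at 11.07, 11.10 and 11.61 with the mutant allele alone, at 11.58, 11.10 and 11.27 with the wild-type allele alone, and at 10.31, 10.87 and 10.02 with neither. The 3 arrays without Foxo1 were the lowest of the 12. It fell by 1.04 (SE 0.22, limma adjusted p = 0.00894) against wt+/mt+, a 2.06-fold lower level, by 0.92 against wt+/mt- and by 0.86 against wt-/mt+. With 1 weight per genotype none of these 3 changes was called (adjusted p = 0.0544, 0.134 and 0.104). The last 2 were lost under 5 and 4 of 21 alternatives (adjusted p up to 0.322 and 0.106).

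Plk3 was at 5.85, 6.07 and 6.00 in wt+/mt+, at 6.11, 6.00 and 6.17 with the mutant allele alone, at 6.68, 6.51 and 6.50 with the wild-type allele alone, and at 6.77, 6.88 and 6.26 with neither. These levels are close to the array medians, and every mt- array lay above every mt+ array, as the bioD control also splits them. Plk3 exceeded the array median on 6 arrays, all of them mt-, so it passed the filter only through the genotypes where it is high. All calls of Plk3 carry that limit. Plk3 rose by 0.66 (SE 0.15, limma adjusted p = 0.0113) against wt+/mt+ and by 0.54 against wt-/mt+, and differed by 0.07 from wt+/mt-. The call against wt-/mt+ was lost under 8 of 21 alternatives (adjusted p up to 0.136).

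Cdkn1a, the p21 inhibitor of cyclin-dependent kinases, did not pass the test. It was at 10.13, 10.47 and 10.73 in wt+/mt+, at 10.76, 10.50 and 10.77 with the mutant allele alone, at 10.23, 10.57 and 10.41 with the wild-type allele alone, and at 10.08, 10.02 and 10.90 with neither, where replicate 3 was the highest of the 12 arrays and the other 2 the lowest. The difference from wt+/mt+ was -0.11 with a 95% interval from -0.61 to 0.39, so these arrays do not show that it stayed level. Without replicate 3 it was -0.39 (adjusted p = 0.116) from wt+/mt+ and -0.62 (adjusted p = 0.0253) from wt-/mt+. Ccng1, a cyclin that p53 induces, was at 11.67, 11.80 and 11.85 in wt+/mt+, at 11.81, 11.86 and 11.74 with the mutant allele alone, at 11.98, 11.74 and 11.71 with the wild-type allele alone, and at 11.43, 11.61 and 11.29 with neither. It fell by 0.36 (SE 0.11, limma adjusted p = 0.0439) against wt-/mt+, and the differences of -0.33 from wt+/mt+ and -0.37 from wt+/mt- had adjusted p = 0.0562 and 0.0519. The call was lost under 15 of 21 alternatives (adjusted p up to 0.202), among them leaving out wt-/mt- replicate 1 or 3.

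**Figure D3:**
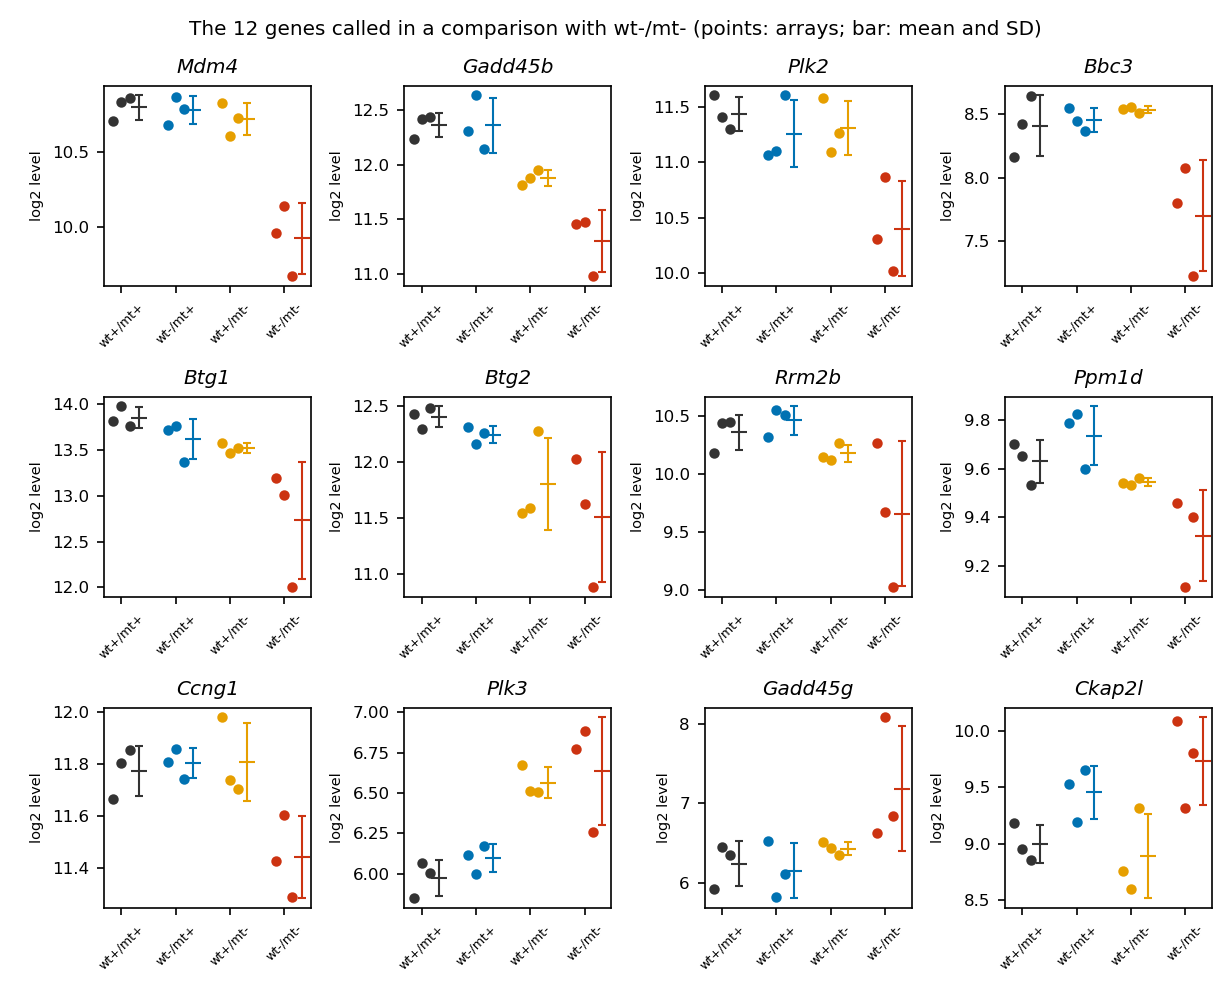
The log2 level of the 12 members called in at least 1 comparison with wt-/mt-, 1 panel a gene, with a point for each array and a bar for the mean and SD of the 3 arrays of a genotype. Axes differ between panels and do not start at 0. For Mdm4 and Plk2 all 3 wt-/mt- points lie below the other 9, and for Gadd45b and Plk3 both mt- genotypes stand apart from both mt+ genotypes.

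Over all genes 30.0% were called in at least 1 comparison with wt-/mt- in the main fit. Of the 8 tested genes of cell death, Bbc3 was the only one called there. It encodes PUMA, a BH3-only protein that p53 and FOXO factors can induce. Its levels were 8.17, 8.42 and 8.65 in wt+/mt+, 8.55, 8.45 and 8.37 with the mutant allele alone, 8.54, 8.56 and 8.51 with the wild-type allele alone, and 7.80, 8.08 and 7.22 with neither. The wt-/mt- arrays were the lowest of the 12. Bbc3 fell by 0.71 (SE 0.19, limma adjusted p = 0.0242) against wt+/mt+, a 1.64-fold lower level, by 0.84 against wt+/mt- and by 0.75 against wt-/mt+. With 1 weight per genotype none of these 3 changes was called (adjusted p from 0.0820 to 0.0973). They were lost under 5, 5 and 4 of 21 alternatives (adjusted p up to 0.128, 0.323 and 0.106).

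Pmaip1, which encodes the BH3-only protein NOXA, was at 8.98, 9.14 and 7.90 in wt-/mt- and between 8.67 and 9.09 elsewhere, so only replicate 3 stood low. Apaf1, the scaffold of the apoptosome, did the reverse, at 9.24, 9.27 and 10.16 in wt-/mt- and between 9.62 and 9.97 elsewhere. Without replicate 3 the Apaf1 difference from wt+/mt+ went from -0.15 to -0.45 and was called (adjusted p = 0.0199). Trp53i11, a p53-inducible gene, was at 7.87, 6.79 and 6.41 in wt-/mt- and between 7.69 and 8.18 elsewhere, and its difference from wt+/mt+ of -0.85 (adjusted p = 0.0579) became -1.28 (adjusted p = 0.000598) without wt-/mt- replicate 1. These 3 genes show arrays of 1 genotype taking different sides.

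Aen, a nuclease of apoptosis, differed by 0.35 between wt-/mt- and wt+/mt+ and by 0.44 from wt-/mt+. Phlda3, which blocks AKT at the membrane, differed by 0.37 and 0.35. No difference of either gene was called in the main fit (lowest adjusted p = 0.0510 for Aen and 0.0560 for Phlda3). Phlda3 also lies on chromosome 1, and with each array centred per chromosome it was called against wt+/mt+ and against wt-/mt+. Without wt-/mt- replicate 1, Aen was called against wt-/mt+ (0.53, limma adjusted p = 0.0283). Ei24 (0.18 from wt+/mt+) and Zmat3 (0.16), the latter an RNA-binding p53 target, were not called in the main fit. Both were lowest of 12 on wt-/mt- replicate 3.

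Of the 3 repair genes, Rrm2b, the p53-inducible subunit of ribonucleotide reductase, was called. It was at 10.18, 10.45 and 10.45 in wt+/mt+, at 10.32, 10.56 and 10.51 with the mutant allele alone, at 10.15, 10.12 and 10.26 with the wild-type allele alone, and at 10.27, 9.67 and 9.02 with neither. Replicate 1 without Foxo1 lay within the range of wt+/mt+, above every wt+/mt- array and below every wt-/mt+ array. Replicates 2 and 3 lay below all arrays of the other genotypes. The fall of 0.81 (SE 0.24, limma adjusted p = 0.0370) against wt-/mt+ was called, while the difference of -0.71 from wt+/mt+ was not (adjusted p = 0.0575). The call was lost under 13 of 21 alternatives (adjusted p up to 0.164), and without wt-/mt- replicate 3 the difference was -0.49 (adjusted p = 0.0560). All 4 Rrm2b probe sets were called against wt-/mt+ (-1.54 to -0.81), and 2 of them against wt+/mt+ (-1.90 and -1.85). Xpc and Ddb2, which recognise DNA lesions for nucleotide excision repair, differed by -0.24 and 0.32 from wt+/mt+ and were not called, and a high array at 10.18 (wt-/mt- replicate 1) carried the Ddb2 difference.

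**Figure D4:**
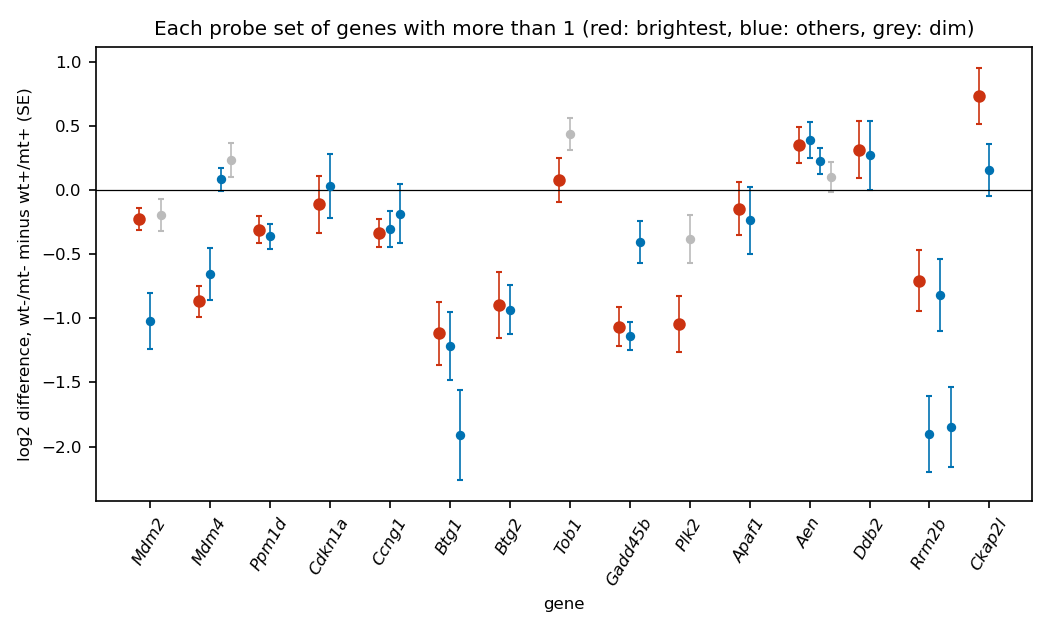
The log2 difference between wt-/mt- and wt+/mt+ (point) with its standard error (bar) for every probe set of the members that have more than 1. Red is the probe set used in the text, blue another kept probe set and grey one above the array median on fewer than 3 arrays. The probe sets of Btg1, Btg2 and Gadd45b all lie below 0, while those of Mdm4 lie on both sides.

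Ckap2l, a protein of the mitotic spindle, was at 9.19, 8.96 and 8.86 in wt+/mt+, at 9.53, 9.20 and 9.65 with the mutant allele alone, at 8.76, 8.60 and 9.31 with the wild-type allele alone, and at 10.08, 9.31 and 9.80 with neither. It rose by 0.73 (SE 0.23, limma adjusted p = 0.0400) against wt+/mt+ and by 0.84 (adjusted p = 0.0320) against wt+/mt-, and differed by 0.28 from wt-/mt+. These calls were lost under 11 and 10 of 21 alternatives (adjusted p up to 0.163 and 0.630). Without wt-/mt- replicate 1 the differences were 0.56 and 0.67 (adjusted p = 0.0950 and 0.0665), and without replicate 3 they were 0.70 and 0.81 (adjusted p = 0.0713 and 0.0585). Neither was called with 1 weight per genotype. A second Ckap2l probe set gave 0.16 against wt+/mt+ and was not called. Dusp5, a phosphatase of ERK, was not called in the main fit. It was at 9.37, 9.23 and 9.18 in wt+/mt+ and at 8.79, 8.85 and 8.92 with the mutant allele alone. With the wild-type allele alone it was at 10.14, 9.78 and 9.10, and with neither at 8.99, 8.90 and 10.41. Its wt-/mt+ arrays lay below every wt+/mt+ array.

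While 1 Foxo1 allele remained, no member was called in the main fit. Loss of the mutant allele with the wild-type allele present (wt+/mt- against wt+/mt+) gave 0 of 27 members called by limma, where 0.183% of all genes were called, and 5 members at an unadjusted p under 0.05, as were 14.9% of all genes. These were Plk3 (0.59, adjusted p = 0.112), Gadd45b (-0.49, adjusted p = 0.174), Cdkn2a (-0.56), Btg2 (-0.60) and Phlda3 (0.33). Without wt-/mt- replicate 3, whose spread the fit shares, Plk3 was called (1 member). In 6 members the arrays of the genotypes did not overlap, against 33.2% of all genes. With 1 weight per genotype 4 were called, Plk3 (adjusted p = 0.00962), Gadd45b (0.0389), Cdkn2a (0.0426) and Btg2 (0.0436). For Cdkn2a and Btg2 the low arrays were wt+/mt- replicates 1 and 2, and replicate 3 lay at 13.45 and 12.28, beside wt+/mt+ means of 13.56 and 12.41. For Plk3 (6.68, 6.51 and 6.50) and Gadd45b (11.81, 11.88 and 11.95) the 3 arrays lay together.

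Loss of the wild-type allele with the mutant allele present (wt-/mt+ against wt+/mt+) gave 0 members called by limma, 0 at an unadjusted p under 0.05, where 3.60% of all genes were, and 0% of all genes called. The main fit shares the wider spread of wt-/mt-. A limma fit over these 2 genotypes alone also called 0 members. Its unadjusted p was 0.000939 for Dusp5, 0.00544 for Gadd45a, 0.00840 for Ckap2l and 0.0432 for Ddb2. The share of all genes at that level in this fit is not given here. The differences ran from -0.41 for Dusp5 to 0.46 for Ckap2l, and the arrays did not overlap in 5 members, against 21.5% of all genes. In the main fit the interval of the Ckap2l difference ran from -0.04 to 0.95, which includes the rise of 0.73 measured in wt-/mt-.

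Between the single-allele genotypes (wt-/mt+ against wt+/mt-) the test gave 0 members called by limma, where 0.0873% of all genes were called, and 7 at an unadjusted p under 0.05, as were 16.4% of all genes. In wt-/mt+, Cdkn2a (0.61), Gadd45a (0.68), Gadd45b (0.48) and Ckap2l (0.57) had the higher mean, and Plk3 (-0.47), Dusp5 (-0.82) and Phlda3 (-0.31) the lower. With 1 weight per genotype all of these except Ckap2l and Phlda3 were called (5 members, adjusted p from 0.0259 to 0.0483). A fit over these 2 genotypes alone called 2, Gadd45a and Plk3. Leaving out wt-/mt- replicate 3 gave the same 2. The arrays did not overlap in 9 members, against 31.8% of all genes.

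**Figure D5:**
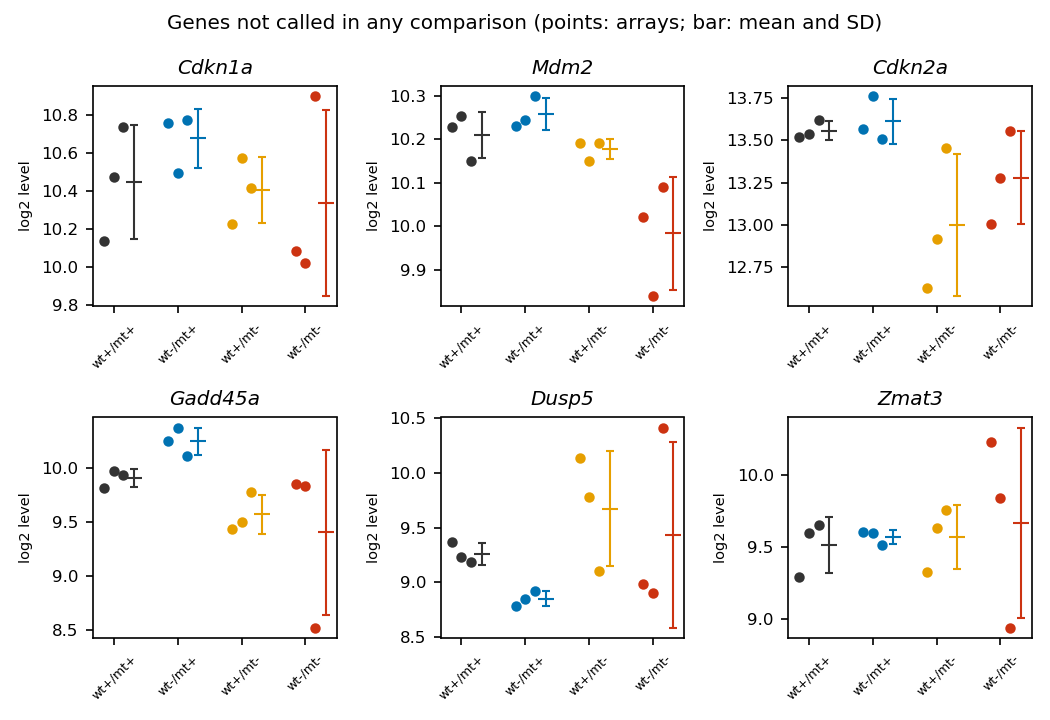
The log2 level of 6 members not called in any comparison of the main fit (Cdkn1a, Mdm2, Cdkn2a, Gadd45a, Dusp5 and Zmat3). Each array has a point, and a bar gives the mean and SD of the 3 arrays of a genotype. Axes differ between panels and do not start at 0. In wt-/mt- the third point stands apart from the other 2 for Cdkn1a, Gadd45a, Dusp5 and Zmat3.

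Over the 4 genotypes at once, the F test called 6 members (Mdm4, Gadd45b, Plk3, Plk2, Bbc3 and Btg1) against 19.2% of all genes, and 16 reached an unadjusted p under 0.05, as did 36.1% of all genes. The interaction asks whether loss of the mutant allele does more when the wild-type allele is gone as well. It was called for 1 member, Mdm4, at -0.77 (SE 0.18, limma adjusted p = 0.0409), against 3.14% of all genes, and 7 members reached an unadjusted p under 0.05, as did 18.4% of all genes. Bbc3 gave -0.88 (adjusted p = 0.114) and Gadd45b -0.58 (adjusted p = 0.205). The Mdm4 interaction was no longer called under 12 of 20 alternatives, among them leaving out any single array of the other 3 genotypes, centring per chromosome (-0.42, adjusted p = 0.271) and the mean of all its probe sets (-0.42).

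The wt-/mt- arrays differed among themselves more than the others did. Chromosome medians relative to wt+/mt+ differed too, beyond chromosome 1. They were -0.66 for chromosome 12 on replicate 1 and 0.33 for chromosome 6 on replicate 2. On replicate 3 they were 0.34 for chromosome 16 and -0.27 for chromosome 8. What lies behind these shifts was not tested. The median SD over the members was 0.0992 for wt+/mt+, 0.125 for wt-/mt+, 0.162 for wt+/mt- and 0.430 for wt-/mt-, and the SD was largest in wt-/mt- for 24 of 27. Replicate 3 without Foxo1 held the lowest of the 12 levels for 15 of 27 members and for 23.2% of all genes. Without it, 11 members were called against wt+/mt+ (7 lower), 4 against wt+/mt- and 13 against wt-/mt+. Mdm2, Apaf1, Ei24 and Zmat3 were among those gained against wt+/mt+, and Btg2 and Ckap2l were lost. The fit with 1 weight per genotype called 4 members against wt+/mt+ (Btg1, Gadd45b, Mdm4 and Plk3), 1 against wt+/mt- (Mdm4) and 2 against wt-/mt+ (Gadd45b and Mdm4). A fit over the compared genotypes alone called 3 (Gadd45b, Mdm4 and Plk2), 0 and 2. Leaving out wt+/mt- replicates 1 and 2 gave 8, 0 and 5, with Aen gained and Bbc3 lost among the 8. That fit has 1 wt+/mt- array, which is assumed to vary like the other genotypes. The share of all genes called is not given here for these fits, so the counts cannot be read as particular to the members. The part of spread and RNA quality in the members' changes was not tested beyond these fits.

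Other genes of the p53 pathway, from a further list of 38 of which 25 were tested, also split. Against wt+/mt+, 9 were called (36.0%, beside 22.1% of all genes), 5 higher and 4 lower, with a median change of 0.21. Trp53inp1, a stress gene of autophagy and cell death, fell by 2.78 (SE 0.24, limma adjusted p = 6.83e-05), and Sesn1, an inhibitor of mTORC1, fell by 1.56 (SE 0.39). Bcl6, the germinal center repressor that can silence Trp53, fell by 0.70. Ccnd1, which encodes cyclin D1, rose by 1.35 and Gtse1, a G2 and S phase protein that holds p53 down, by 0.70. The counts were 7 against wt+/mt- (28.0%, beside 14.6% of all genes, with 3 higher) and 10 against wt-/mt+ (40.0%, beside 20.8%, with 6 higher), and 0 between genotypes that kept an allele. Trp53inp1 was the 1 gene of this list called for the interaction, at -2.28. The alternative settings were read for the members only, so calls of this list and the next were not checked under them.

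Of 28 listed symbols of genes that act upstream of p53, which name Kmt5a also as Setd8, 22 were tested. Against wt+/mt+, 6 rose and 0 fell. This is 27.3%, beside 22.1% of all genes called and 12.2% called higher. Chek1, the checkpoint kinase of replication stress, rose by 1.02 (SE 0.27, limma adjusted p = 0.0234), and E2f1, the S phase transcription factor that can raise Arf, by 0.99 (SE 0.20). The methyltransferases Prmt5 and Kmt5a rose by 0.68 and 0.46, the Polycomb protein Bmi1, a repressor of the Cdkn2a locus, by 0.59, and Rrn3, a factor of RNA polymerase I, by 0.55. Against wt+/mt- and against wt-/mt+, 3 were called each, all higher, which is 13.6% beside 14.6% and 20.8% of all genes. Their median change against wt+/mt+ was 0.10, beside 0.05 over all genes.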

How the data were processed

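Total RNA was measured on 12 Affymetrix mouse arrays. The authors deposited 1 log2 value per probe set and array, summarised with RMA (version not given) per the submitters' processing notes. RMA normalizes across arrays, so a shift shared by most genes is largely removed. The log base was taken from RMA's usual output and the range of values, 3.09 to 15.57.

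Of 45101 probe sets, 34958 named 1 gene, 932 several and 9211 none in the annotation. Each gene took its brightest probe set, and was kept where this exceeded the array median on 3 or more arrays. limma 3.58.1 in R 4.3.3 fitted 1 mean per genotype over 12 arrays, and p-values were Benjamini-Hochberg adjusted over all kept genes. The fit was tested on simulated data. Array numbers are not shared between genotypes, so nothing pairs arrays. Every listed member is named, with up to 6 called genes of each further list. The members and lists were chosen with earlier results of these data known. Alternatives changed the filter, scaling, spread, probe sets and arrays. The number of arrays limits the precision.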

Additional observations from a re-analysis of the deposited data

Results flagged for a closer look

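The change of Mdm4 on losing the mutant allele differed between cells with and without the wild-type allele by the interaction term of the limma fit over 12 arrays, a call that was lost under 12 of 20 alternatives. With the wild-type allele present the change was -0.08, without it the change was -0.85, and the difference of the changes was -0.77 (SE 0.18, adjusted p = 0.0409 over all kept genes). Leaving out any single array of the other 3 genotypes ended the call (adjusted p from 0.0690 to 0.120), and over the 20 alternatives the adjusted p ran from 0.0100 to 0.271. All 3 wt-/mt- arrays (9.96, 10.14 and 9.67) lay below the other 9 (10.61 to 10.86). The values for the chromosome 1 median, the probe sets and the alternatives that bear on it stand with the Mdm4 results above. With 3 arrays a genotype, single arrays were not screened as outliers.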

How the results depend on the processing

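No paired analysis was possible because the genotypes share no array number. The 24 member changes called were each run under up to 21 alternatives, 503 runs in all: 362 kept the call, 141 lost it and 0 changed direction. Gadd45b and Mdm4, each against wt+/mt+ and against wt-/mt+, kept the call under all of theirs. Both comparisons set mt- arrays against mt+ arrays, and no alternative separates that from the bioD split. Against wt+/mt-, where all arrays are mt-, the call was lost under 10 of 21 alternatives for Gadd45b and 2 of 21 for Mdm4. The share of all genes called under each setting is not given here, so the moves below cannot be read as particular to the members. Counts of members called moved as follows. A fit with 1 weight per genotype gave 4 for wt-/mt- against wt+/mt+ (8 in the main fit), 1 against wt+/mt- (5), 2 against wt-/mt+ (10), 4 for wt+/mt- against wt+/mt+ (0) and 5 between the single alleles (0). The fit over compared genotypes alone gave 3, 0, 2, 2 and 2 for the same comparisons. Centring per chromosome gave 13 for wt-/mt- against wt+/mt+, 8 against wt+/mt- and 0 for the interaction, and the mean of all probe sets gave 0 for the interaction. Without wt+/mt- replicates 1 and 2 there were 0 against wt+/mt-, 5 against wt-/mt+, 2 by the F test and 0 for the interaction, from fits in which wt+/mt- has 1 array, assumed to vary like the other genotypes. Leaving out each array in turn gave 5 to 11 against wt+/mt+, 1 to 8 against wt+/mt-, 3 to 13 against wt-/mt+, 0 to 1 for wt+/mt- against wt+/mt+, 0 to 2 between the single alleles, 4 to 9 by the F test and 0 to 3 for the interaction. The lowest counts came without wt+/mt+ replicates 2 or 3 (5 each), wt+/mt- replicate 1 (1) or 2 (2), and wt-/mt+ replicates 1 or 2 (3 each). Other counts that moved by over 1.5 times were 3 against wt+/mt- without wt+/mt+ replicate 2 or wt-/mt+ replicate 1, 8 against wt+/mt- without wt-/mt- replicate 1, 5 against wt-/mt+ without wt-/mt+ replicate 3, and 1 for wt+/mt- against wt+/mt+ and 2 between the single alleles without wt-/mt- replicate 3, with 1 between them without wt+/mt- replicate 3. The interaction count was 0 without any 1 array of the other genotypes, 3 without wt-/mt- replicates 1 or 2 and 2 without replicate 3. No alternative called a member for wt-/mt+ against wt+/mt+. Perp and Tnfrsf10b, under the array median on all 12 arrays, are not resolved at this signal. Plk3 exceeded the median on 6 arrays and Gadd45g on 9, so their lower levels are poorly resolved as well.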
